A study of Rattus norvegicus with 8 samples.

Results

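Arc and Homer1 are genes that neurons switch on within minutes of strong synaptic activity and whose proteins act at the synapse itself, unlike the transcription factors induced beside them. They were read here in rat brain after an experimental stroke or a sham operation, with or without the blood pressure drug candesartan. Their members are the probe sets of the Affymetrix RAE 230A array whose annotation gives Arc or Homer1 as the only symbol. Of 15866 probe sets other than controls, 6 met this rule, 1 for Arc (1387068_at) and 5 for Homer1 (1370997_at, 1370454_at, 1368318_at, 1368319_a_at and 1370656_a_at). A further probe set, 1399163_a_at, is annotated to both Hax1 and Homer1 and was left out.

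The 4 groups, all male Wistar rats of 7 weeks and 160 to 200 g, were MCAO candesartan, MCAO vehicle, sham candesartan and sham vehicle. MCAO is occlusion of the right middle cerebral artery, here for 90 min and followed by reperfusion. Candesartan, an antagonist of the angiotensin AT1 receptor, was given under the skin at 0.1 mg/kg 2 times a day for 5 days before surgery, and the vehicle was 0.9% NaCl. The route is stated for 1 of the candesartan arrays, and for MCAO candesartan 2 the pretreatment itself is stated in the description alone. RNA came from a segment of the right hemisphere 2 h after MCAO or sham. Each array carried RNA pooled from 2 rats, and each group had 2 pools, numbered 1 and 2 below, so 8 arrays were compared.

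The mRNA of Arc moves into active dendrites. Its protein binds the endocytic machinery and promotes removal of AMPA-type glutamate receptors from the synapse. Homer1 encodes scaffold proteins of the postsynaptic density. Its long forms pair through a coiled coil and tie metabotropic glutamate receptors to Shank scaffolds and to calcium release channels. Activity also yields short forms of Homer1 that lack the coiled coil and compete with the long ones. Probe sets of 1 gene can therefore read different transcripts. The annotation ties the 5 Homer1 probe sets to 4 reference records, 1368318_at and 1368319_a_at to the same one, and it does not say which Homer1 form each record is. They are kept apart here.

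Signals were the deposited intensities on a linear scale. Differences were tested with limma on log2(signal + 369.9), a scale that understates changes of dim probe sets, and p-values were adjusted by Benjamini-Hochberg over all 10310 probe sets that passed a signal filter. A difference was called at an adjusted p under 0.05. All 6 member probe sets passed the filter, which asked for a signal above 916.3 on at least 2 arrays. Homer1 1370997_at passed it through its 4 MCAO arrays alone, and Homer1 1368319_a_at on 4 arrays, namely both MCAO candesartan pools, sham candesartan 1 and sham vehicle 2. Pools of 1 group differed by a median of 0.23 (log2) in MCAO candesartan, 0.13 in MCAO vehicle, 0.15 in sham candesartan and 0.13 in sham vehicle. MCAO candesartan 2 stood apart, with a mean correlation of 0.959 with the other arrays, where those had at least 0.976.

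The tissue carried neuronal RNA throughout. Of 14 general neuron markers 13 were on the array, and each of these exceeded 916.3 on at least 1 array. Their summed signal was 300700 to 337958 in MCAO candesartan, 258392 to 270682 in MCAO vehicle, 264623 to 271126 in sham candesartan and 266094 to 291653 in sham vehicle. MCAO candesartan thus lay above the other 3 groups, which overlapped. In such tissue RNA, fewer cells of a type and less RNA per cell cannot be told apart.

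**Figure D1:**
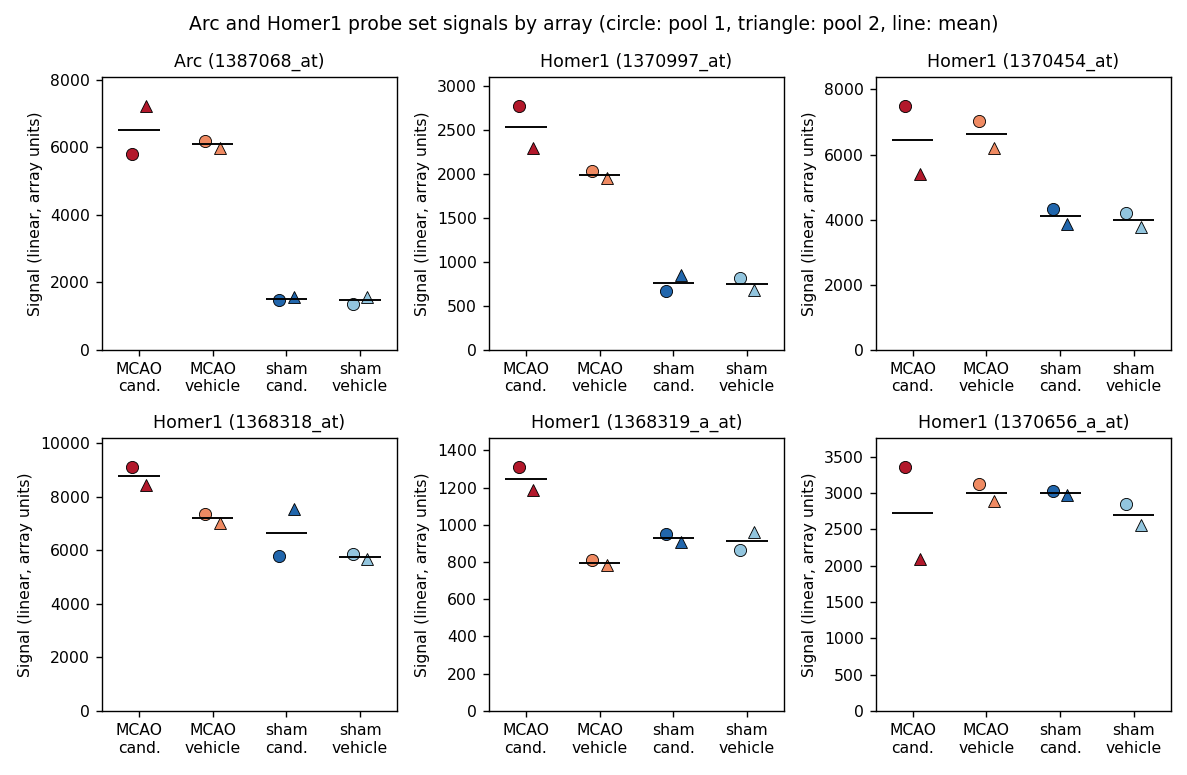
Signal (linear, array units, axes from 0) of the Arc probe set and the 5 Homer1 probe sets on each of the 8 arrays. Circles are pool 1, triangles pool 2 and lines the means of 2 pools. For Arc 1387068_at, Homer1 1370997_at and Homer1 1370454_at every MCAO array lies above every sham array, and for the other 3 probe sets the operations overlap.

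Arc was more than 4 times as bright after MCAO as after sham, with either pretreatment, and candesartan made no detectable difference to it. The signal of 1387068_at was 5802.3 and 7230.3 in MCAO candesartan and 6179.3 and 5995.4 in MCAO vehicle. It was 1471.2 and 1549.7 in sham candesartan and 1353 and 1576.2 in sham vehicle. The lowest MCAO array thus lay far above the highest sham array, while within each operation the 2 pretreatments overlapped.

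Mean Arc signals were 6516.3 ± 1009.7 in MCAO candesartan, 6087.4 ± 130.0 in MCAO vehicle, 1510.5 ± 55.5 in sham candesartan and 1464.6 ± 158 in sham vehicle (SD, n = 2 pools each). In that order of levels only the step between MCAO vehicle and sham candesartan exceeded the spread of the pools. The ratio of mean signals, MCAO over sham, was 4.31 with candesartan and 4.16 with vehicle. On the log2 scale Arc rose by 1.87 ± 0.14 (SE) with candesartan, at an adjusted p = 0.00025 by limma. With vehicle it rose by 1.82 ± 0.14 (adjusted p = 0.000162 by limma). Over both pretreatments the rise was 1.84 ± 0.10 (adjusted p = 8.21e-06 by limma). With all 8 arrays permuted between operations, 4 MCAO against 4 sham, the exact two-sided p was 0.0286, the smallest such a design can give. With 2 pools against 2 no exact test can go below 0.333, so the p-values within a pretreatment rest on limma's pooled spread.

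Homer1 gave a graded picture, from a clear rise in 1 probe set to no detectable change in another. The steepest was 1370997_at. Its signal was 2771.9 and 2296.5 in MCAO candesartan and 2030.6 and 1947.1 in MCAO vehicle, against 662.9 and 846.8 in sham candesartan and 819 and 684.4 in sham vehicle. All 4 sham arrays were below the filter's threshold and all 4 MCAO arrays at more than 2 times it, and MCAO candesartan lay above MCAO vehicle in both pools.

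Group means of 1370997_at were 2534.2 ± 336 in MCAO candesartan, 1988.9 ± 59.0 in MCAO vehicle, 754.9 ± 130.0 in sham candesartan and 751.7 ± 95.2 in sham vehicle (SD, n = 2 pools each). The ratio of MCAO to sham means was 3.36 with candesartan and 2.65 with vehicle. This Homer1 probe set rose by 1.37 ± 0.16 (log2, SE) with candesartan, at an adjusted p = 0.00586 by limma. With vehicle it rose by 1.07 ± 0.16 (adjusted p = 0.0235 by limma). Over both pretreatments it rose by 1.22 ± 0.12 (adjusted p = 0.000486 by limma), and permuting arrays between operations gave an exact two-sided p = 0.0286. The call with vehicle rested on every array of its comparison: the adjusted p was 0.329 without MCAO vehicle 1, 0.238 without MCAO vehicle 2, 0.161 without sham vehicle 1 and 0.28 without sham vehicle 2. Without the signal filter it was 0.0985. The call with candesartan was lost without sham candesartan 1 (adjusted p = 0.0822).

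A second Homer1 probe set, 1370454_at, rose by less. It gave 7494.9 and 5397.7 in MCAO candesartan and 7046.6 and 6192.3 in MCAO vehicle, against 4313.6 and 3880.2 in sham candesartan and 4212.6 and 3762.7 in sham vehicle. Again the operations did not overlap, although MCAO candesartan 2 was the lowest of the MCAO arrays. In each group pool 1 read higher than pool 2.

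The ratio of mean signals for 1370454_at was 1.57 with candesartan and 1.66 with vehicle. Over both pretreatments it rose by 0.64 ± 0.11 (log2, SE; adjusted p = 0.0364 by limma), with an exact two-sided permutation p = 0.0286. Within a pretreatment the differences were 0.59 ± 0.16 with candesartan (adjusted p = 0.218) and 0.68 ± 0.16 with vehicle (adjusted p = 0.182), neither called. The call over both pretreatments was lost when any of 6 arrays was left out (adjusted p between 0.113 and 0.232), those being every array other than MCAO candesartan 1 and 2. Testing every probe set instead of those that passed the filter ended the call too (adjusted p = 0.0937), as did a fit with no variance trend (adjusted p = 0.0858).

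The other 3 Homer1 probe sets were not called in any comparison. Signals of 1368318_at were 9102.6 and 8434.5 in MCAO candesartan and 7367.5 and 7022.7 in MCAO vehicle, against 5794.3 and 7526.5 in sham candesartan and 5843.8 and 5682.9 in sham vehicle. MCAO arrays were the higher ones within each pretreatment, but sham candesartan 2 exceeded both MCAO vehicle arrays. The MCAO difference was 0.39 ± 0.13 with candesartan (log2, SE; adjusted p = 0.314) and 0.30 ± 0.13 with vehicle (adjusted p = 0.688), and 0.35 ± 0.09 over both (adjusted p = 0.22). The exact permutation p over 8 arrays was 0.0857.

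For 1370656_a_at the values were 3357.8 and 2098.5 in MCAO candesartan and 3122.4 and 2891.5 in MCAO vehicle, against 3032.4 and 2974.4 in sham candesartan and 2846.4 and 2564 in sham vehicle. The 2 MCAO candesartan pools held both the highest and the lowest value of the 8 arrays. Over both pretreatments the MCAO difference was -0.0087 ± 0.13 (log2, SE; 95% interval -0.29 to 0.27). Without MCAO candesartan 2 it was 0.14.

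Dimmest of the 6 in every MCAO array was 1368319_a_at, with 1309.2 and 1186.2 in MCAO candesartan and 808.8 and 785.4 in MCAO vehicle, against 949.3 and 907.8 in sham candesartan and 864.8 and 958.8 in sham vehicle. After MCAO it read higher than after sham in both candesartan pools and lower in both vehicle pools, a pattern that 3.89% of all tested probe sets had. The MCAO difference was 0.32 ± 0.17 with candesartan (log2, SE; adjusted p = 0.477) and -0.13 ± 0.17 with vehicle (adjusted p = 0.938). Over both pretreatments it was 0.09 ± 0.12 (95% interval -0.17 to 0.36).

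In limma's tests 2 of the 6 member probe sets were called higher after MCAO with candesartan, where 0.213% of all tested probe sets were called higher. With vehicle 2 of the 6 were called higher, against 0.262% of all tested, and over both pretreatments 3 of the 6, against 0.417%. Without the signal filter, through which 1370997_at had passed by its MCAO arrays alone, 1 of the 6 was called with vehicle and 2 over both pretreatments. Those 3 were also the members whose 4 MCAO arrays all lay above the 4 sham arrays, a pattern that 2.83% of all tested probe sets had. By size of the rise over both pretreatments, Arc ranked 5 among the 10310 probe sets, Homer1 1370997_at 16 and Homer1 1370454_at 60.

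**Figure D2:**
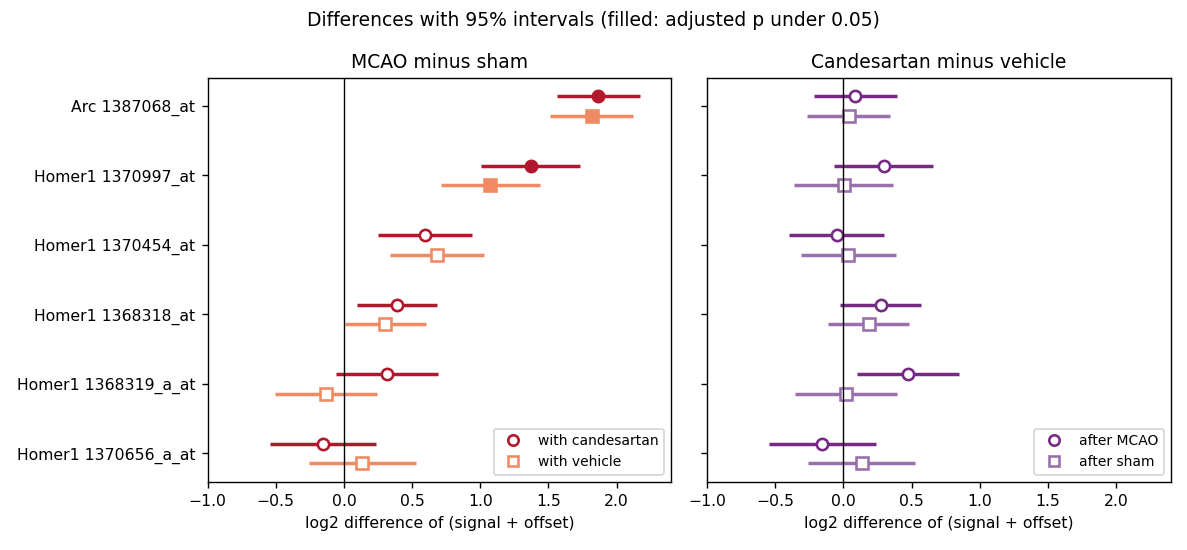
Differences on the log2(signal + 369.9) scale with 95% intervals from limma for each probe set, MCAO minus sham on the left (with candesartan above, with vehicle below) and candesartan minus vehicle on the right (after MCAO above, after sham below). Filled symbols have an adjusted p under 0.05, which only Arc 1387068_at and Homer1 1370997_at reach and only on the left.

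Whether the probe sets moved by unequal amounts was tested within arrays, as the difference of their log2 values, by permuting the 8 arrays between operations. This test was chosen after the values were seen, and it covered all 15 pairs of the 6 probe sets. Arc, Homer1 1370997_at and Homer1 1370454_at had already kept MCAO and sham arrays apart, so their pairs with flatter probe sets were likely to do so. For 10 pairs the MCAO and sham arrays did not overlap, each with an exact two-sided p = 0.0286, the smallest possible, and an adjusted p = 0.0429 over the 15 pairs. The pairs share probe sets, and this adjusted p reflects only how many of them reached the smallest p. The count is therefore a description, and the share of such pairs over all probe sets was not computed. With plain log2 signals and no offset 9 pairs kept apart (adjusted p = 0.0476 each), and the pair that did not was Arc with Homer1 1370997_at. For that pair the shift was 0.62 with the offset and 0.50 without it, where its log2 ratio of 1.07 to 1.65 in MCAO arrays overlapped 0.72 to 1.20 in sham arrays (exact permutation p = 0.0857, adjusted p = 0.107). An unequal change of Arc and Homer1 1370997_at therefore rests on the offset. Against the other 4 Homer1 probe sets Arc rose more on either scale, by 1.20 (log2, with the offset) in the closest case, Homer1 1370454_at.

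Among the 10 Homer1 pairs, 5 kept MCAO and sham arrays apart, and 6 did with quantile normalization. Homer1 1370997_at, which had passed the filter through its MCAO arrays alone, moved more than each of the other 4. The log2 value of 1368318_at minus that of 1370997_at was 1.59 to 1.72 in the MCAO arrays and 2.39 to 2.70 in the sham arrays, a relative shift of -0.88. Between 1370454_at and 1370997_at the shift was -0.58, with 1.11 to 1.63 in MCAO arrays and 1.80 to 2.18 in sham arrays, and without the offset it was -0.90. Homer1 1370454_at also moved more than 1370656_a_at, by 0.65. Between 1368318_at and 1370454_at the difference of -0.29 did not pass (exact permutation p = 0.143, adjusted p = 0.153).

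The RefSeq promoter table held 1 of the 2 genes, Homer1. Its sequence is shown because Homer1 probe sets rose after MCAO, as did other activity-induced genes, and such genes often carry sites for CREB, SRF, MEF2, AP-1 or EGR proteins near their start. These are the 250 bases before the annotated start at chr2:26278762-26279011 (assembly GRCr8, plus strand, 5′ to 3′), with capitals on the 1 motif match found.
Homer1 promoter: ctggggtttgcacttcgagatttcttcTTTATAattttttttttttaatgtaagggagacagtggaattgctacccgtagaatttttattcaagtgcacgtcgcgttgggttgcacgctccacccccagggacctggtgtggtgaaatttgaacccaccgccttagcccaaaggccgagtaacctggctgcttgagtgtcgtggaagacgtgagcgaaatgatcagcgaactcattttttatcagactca
The capitals, which begin 223 bases before the start, mark TATAAA read on the opposite strand. This motif is held on either strand by 12.9% of 33469 promoters of this length. Neither the full CRE TGACGTCA (1.59% of promoters) nor its shorter core TGACG (18.2%) was found on either strand, the core being part of the full site. An AP-1 site written TGANTCA (6.34%), an EGR site written GCGNGGGCG (4.29%), the CArG box (1.5%) and the MEF2 site (2.96%) were not found either. Only these letters in this window were searched. GC content was 46.4%, against a median of 51.2% over all promoters.

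Candesartan was compared with vehicle within each operation. No member probe set was called after MCAO, where 0.0679% of all tested probe sets were called by limma in either direction. An unadjusted p under 0.05 was reached by 1 of 6, Homer1 1368319_a_at (unadjusted p = 0.0185 by limma). It ranked 646 by p among the 10310 tested, and 1368318_at, at an unadjusted p = 0.0677 by limma, ranked 1690. Many other probe sets were thus also under 0.05, and 1 of 6 is not read as an excess. After sham none of the 6 was called, nor was any of the 10310 tested (0%), and no member had an unadjusted p under 0.05. The difference between the MCAO effects under candesartan and under vehicle was called for none of the 6 either, against 0.0194% of all tested, and again no member had an unadjusted p under 0.05.

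For Arc the difference between candesartan and vehicle was 0.09 ± 0.14 after MCAO (log2, SE; 95% interval -0.22 to 0.39) and 0.04 ± 0.14 after sham (95% interval -0.27 to 0.34). Its MCAO effect differed between pretreatments by 0.05 ± 0.19 (95% interval -0.38 to 0.48; adjusted p = 0.965 by limma). Without MCAO candesartan 2 the difference after MCAO was -0.0650.

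Homer1 1370997_at differed by 0.30 ± 0.16 between candesartan and vehicle after MCAO (log2, SE; 95% interval -0.07 to 0.66; adjusted p = 0.465 by limma) and by 0.0018 ± 0.16 after sham. Both of its MCAO candesartan pools lay above both MCAO vehicle pools, which 18% of all tested probe sets also did. The same order held for 1368318_at, with 0.27 ± 0.13 after MCAO (95% interval -0.02 to 0.57; adjusted p = 0.413), and for 1368319_a_at. The dim 1368319_a_at had the largest such difference of the 6, 0.47 ± 0.17 (95% interval 0.10 to 0.84; adjusted p = 0.293). For 1370454_at the difference after MCAO was -0.05 ± 0.16 and for 1370656_a_at -0.15 ± 0.18, with the pretreatments overlapping in both. Permuting all 8 arrays between candesartan and vehicle gave exact two-sided p-values between 0.0857 and 0.971 for the 6 probe sets.

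Pyramidal neuron markers were also highest in the group in which these 3 Homer1 probe sets were highest. Their summed signal over the 8 of 11 listed markers on the array was 91427.6 to 120962 in MCAO candesartan and 62884 to 80010.5 in MCAO vehicle, with 62209.2 to 71617.3 in sham candesartan and 69521.5 to 76058.3 in sham vehicle. For candesartan minus vehicle after MCAO 6 of these 8 markers were above 0, where 44.2% of all tested probe sets were. Their median was 0.32 (log2), against -0.03 over all tested probe sets. Camk2a, at 1.90 by its brightest probe set, is 1 of these markers. It is also given below among the postsynaptic partners, so the 2 observations are not independent. For MCAO minus sham their median was 0.42 with candesartan and -0.05 with vehicle. None of the 8 was called by limma, each exceeded 916.3 on at least 1 array, and their part in the Homer1 values was not tested. The direction was not particular to pyramidal neuron markers. For candesartan minus vehicle after MCAO, 10 of 13 general neuron markers were above 0 (median 0.12). So were 8 of 10 striatal neuron markers (median 0.11).

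Genes whose log2 values followed each probe set most closely over the 8 arrays were ranked by Pearson correlation, as a description without a test. All values come from the same 8 arrays, so that features of a single array enter every correlation. The 5 closest to Arc were Klf6 (r = 0.987), Fos (0.985), Egr1 (0.984), Junb (0.982) and Zfp36l1 (0.974). These include the immediate early transcription factor genes Fos, Egr1 and Junb. Over both pretreatments the MCAO difference was 2.76 (log2) for Fos, 1.24 for Junb, 0.94 for Egr1, 0.86 for Zfp36l1 and 0.69 for Klf6, so that Arc's 1.84 lay between those of Fos and Junb.

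Homer1 1370997_at was also closest to Klf6 (r = 0.993), followed by Rgs2 (0.985), Egr4 (0.979), Lsm12 (0.963) and Btg1 (0.96). Rgs2, a regulator of G-protein signalling, read 12551.9 and 10726 in MCAO candesartan and 8386.8 and 10262 in MCAO vehicle, against 4096.2 and 3920.2 in sham candesartan and 4156.6 and 3827.7 in sham vehicle (1387074_at). Its MCAO arrays lay apart from its sham arrays. Homer1 1370454_at was closest to the splicing kinase gene Clk1 (r = 0.968), then to P4ha1 (0.962), Tardbp (0.955), Srp72 (0.954) and Peli1 (0.949). With Arc the correlation over the same 8 arrays was 0.965 for Homer1 1370997_at and 0.886 for Homer1 1370454_at.

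The 3 Homer1 probe sets without a call kept other company. Closest to 1368318_at were Lmo4 (r = 0.982), Pcp4 (0.961), Kif5a (0.956), Tmod1 (0.955) and Brms1l (0.953). Supt4h1 (0.977), Abhd11 (0.973), Pitpnm2 (0.967), Ttc3 (0.957) and Spcs1 (0.951) were closest to 1368319_a_at. Those of 1370656_a_at were Glt8d1 (0.979), Ptbp3 (0.977), Srsf11 (0.967), Spata7 (0.965) and Cabin1 (0.963). All 5 genes of 1370656_a_at were, like that probe set itself, lowest in MCAO candesartan 2, the array that stood apart. The 5 genes of 1368319_a_at were, like it, higher in both MCAO candesartan arrays than in the other 6. Among these 15 genes none had an adjusted p under 0.05 by limma for MCAO over both pretreatments, the lowest being 0.107 for Tmod1.

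**Figure D3:**
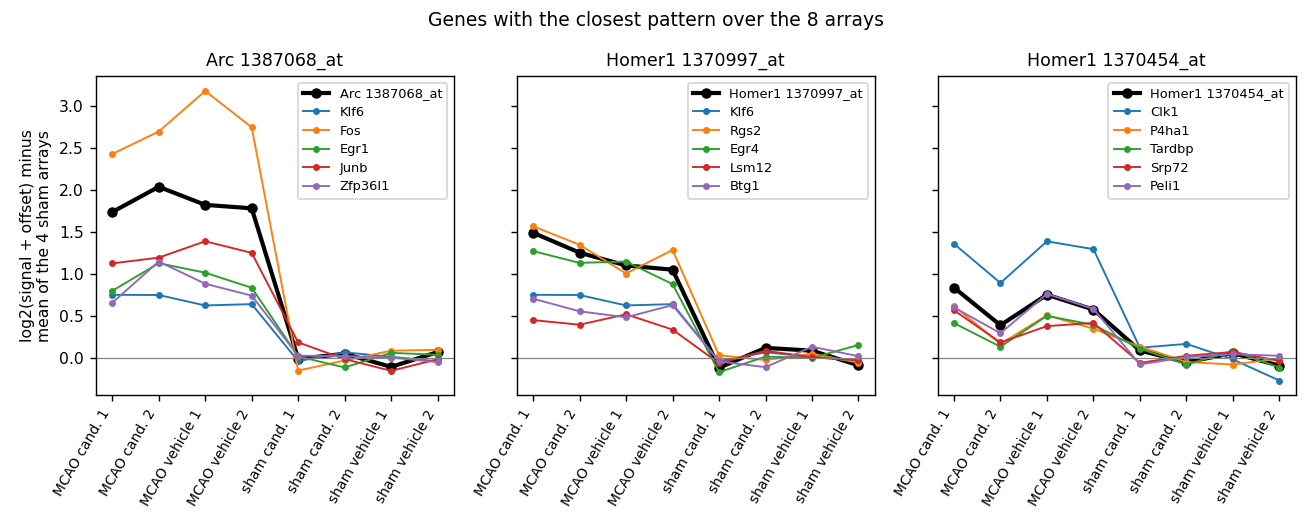
Log2(signal + 369.9) on each array minus the mean of the 4 sham arrays, for Arc 1387068_at, Homer1 1370997_at and Homer1 1370454_at (black) and the 5 genes with the highest correlation to each (colours), candesartan arrays before vehicle arrays within each operation. Lines only join the points of a gene. Sham arrays lie near 0 and MCAO arrays above it, with Fos above Arc and Clk1 above Homer1 1370454_at.

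Other activity-induced genes for synaptic and signalling proteins moved less uniformly than Arc. Of 19 genes on that list, Arc and Homer1 among them, 17 were on the array and 16 passed the filter. Leaving out Arc and Homer1, 14 remained. With candesartan 2 of these 14 were called higher after MCAO and their median difference was 0.26 (log2), against -0.03 over all tested probe sets, of which 0.213% were called higher. With vehicle 3 were called higher, against 0.262% of all tested, with a median of 0.21 against 0.01. None was called lower in either. Ptgs2, 1 of those called with each pretreatment, had passed the filter through its MCAO arrays alone, and this list was not counted without the filter. The list was also chosen with earlier results of these data known, so its counts and medians are a description.

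Ptgs2, the inducible cyclooxygenase that makes prostaglandins, read 1526.2 and 1507.6 in MCAO candesartan and 2090.6 and 2020.6 in MCAO vehicle, against 384.4 and 638.9 in sham candesartan and 526.4 and 466.9 in sham vehicle. It passed the filter through its 4 MCAO arrays alone. It rose by 1.11 ± 0.19 (log2, SE) with candesartan (adjusted p = 0.0477 by limma) and by 1.49 ± 0.19 with vehicle (adjusted p = 0.00783). Rgs2 rose by 1.45 with candesartan and 1.15 with vehicle (adjusted p = 0.00151 and 0.00489 by limma). Gadd45b, a stress-inducible gene also linked to DNA demethylation in neurons, gave 1430.2 and 1646.1 in MCAO candesartan and 3457.8 and 3352.4 in MCAO vehicle, against 972.3 and 1362.2 in sham candesartan and 1315.2 and 1065.8 in sham vehicle. Its MCAO difference was 0.32 with candesartan (adjusted p = 0.462) and 1.28 with vehicle (adjusted p = 0.00896), and the difference between these, -0.96, did not pass (adjusted p = 0.446 by limma). Scg2, which encodes a precursor of secreted neuropeptides, had an MCAO difference of -0.55 with candesartan (adjusted p = 0.174) and -0.0649 with vehicle (adjusted p = 0.962). Dusp1, a phosphatase that switches off MAP kinases, read 10116.4 and 14577.6 in MCAO candesartan and 8682.8 and 8312.9 in MCAO vehicle, against 6722.7 and 7830.9 in sham candesartan and 8126.3 and 6924.1 in sham vehicle (1368146_at). Its arrays did not overlap between operations, but neither 0.72 with candesartan (adjusted p = 0.178) nor 0.17 with vehicle (adjusted p = 0.901) passed. Plk2, a kinase that acts in synaptic scaling, gave 10143.9 and 10848 in MCAO candesartan and 9251.2 and 9875.1 in MCAO vehicle, against 7509 and 8096.3 in sham candesartan and 7396 and 7607 in sham vehicle. All of its MCAO arrays lay above all of its sham arrays, and its difference over both pretreatments, 0.37 ± 0.08 (SE), did not pass (adjusted p = 0.0853 by limma).

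The mRNAs of proteins that Arc and Homer1 work with were also read. Of 34 listed scaffolds, receptors and endocytic genes 30 were on the array and 22 passed the filter. With candesartan 13 of the 22 were above 0 after MCAO, with a median of 0.06 (log2), and with vehicle 6 of 22, with a median of -0.15, where 44.7% and 52.5% of all tested probe sets were above 0. None of the 22 was called by limma with either pretreatment, where 0.213% of all tested probe sets were called higher with candesartan and 0.262% with vehicle, so a count of 0 is near the background.

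Shank3, a scaffold that binds Homer proteins, had an MCAO difference of -0.0036 with candesartan and 0.0142 with vehicle (log2). For its relative Shank2 the values were 0.09 and -0.22. Grm5, the metabotropic glutamate receptor that Homer1 anchors, gave 917.8 and 729.8 in MCAO candesartan and 346.4 and 292.4 in MCAO vehicle, against 344.4 and 950.8 in sham candesartan and 842 and 587.9 in sham vehicle. These signals lay near or below the threshold, and the MCAO differences of 0.29 and -0.65 did not pass (adjusted p = 0.714 and 0.705 by limma). Dlg4 encodes the postsynaptic scaffold PSD-95. By its brightest probe set, 1387210_at, it gave -0.23 with candesartan and -0.34 with vehicle (adjusted p = 0.531 and 0.649 by limma). Its dimmer 1389901_at gave 1001.3 and 901.3 in MCAO vehicle against 904.8 and 802.8 in sham vehicle. In MCAO candesartan it gave 821.8 and 988.3 against 1191.3 and 1004.8 in sham candesartan. Dlg4 1371183_a_at gave 1538.7 and 1315.2 in MCAO candesartan against 1579.2 and 856.8 in sham candesartan. With vehicle it gave 1697.2 and 935.8 after MCAO against 1565 and 1439.7 after sham. Homer2, Homer3 and Shank1 did not pass the filter, Homer2 reading 688.9 and 815.8 in MCAO candesartan and 335.4 and 783.9 in MCAO vehicle, against 939.3 and 836.8 in sham candesartan and 627.9 and 847.3 in sham vehicle. Homer3 ranged from 508.9 to 769.9 in the MCAO arrays and from 448.9 to 786.8 in the sham arrays.

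Camk2a, the calcium-dependent kinase abundant at excitatory synapses, had the largest difference of the list, 1.67 ± 0.41 with candesartan (log2, SE; adjusted p = 0.194) and -0.30 ± 0.41 with vehicle (adjusted p = 0.947). Its brightest probe set, 1388187_at, read 15879.2 and 10931.9 in MCAO candesartan and 4401.6 and 2412 in MCAO vehicle, against 6654.7 and 2217 in sham candesartan and 5186.4 and 3273.3 in sham vehicle. The 2 sham candesartan pools lay far apart, as did the MCAO vehicle pools. Another Camk2a probe set, 1389824_at, gave 3758.2 and 3375.7 in MCAO candesartan and 2359.5 and 3038.4 in MCAO vehicle. It gave 3229.4 and 3719.7 in sham candesartan and 2813.4 and 2405.5 in sham vehicle. The dim Camk2a 1368935_at did not rise with candesartan, at 840.8 and 664.8 after MCAO against 927.8 and 711.9 after sham. With vehicle it gave 906.3 and 567.9 after MCAO against 684.9 and 983.8 after sham. Gria2, an AMPA receptor subunit, gave 0.51 with candesartan and -0.26 with vehicle by its brightest probe set, 1368401_at (adjusted p = 0.235 and 0.759 by limma). Its other probe set, 1387171_at, went the other way with candesartan, at 8262.8 and 8870.9 in MCAO candesartan against 8932.7 and 9331.6 in sham candesartan. With vehicle it read 8073.9 and 8143.5 after MCAO against 9011.6 and 8798.2 after sham. For the dynamin gene Dnm1 the difference was 0.61 with candesartan (adjusted p = 0.322) and -0.15 with vehicle (adjusted p = 0.95). For the endophilin gene Sh3gl1 it was 0.35 with candesartan (adjusted p = 0.356) and -0.0532 with vehicle (adjusted p = 0.98). Trpc1, a cation channel that Homer proteins bind, gave 0.17 over both pretreatments (adjusted p = 0.639 by limma).

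Among kinases and transcription factors that act on the Arc gene, 14 of 19 were on the array and 13 passed the filter. Egr1, a zinc finger factor that binds the Arc promoter, was the 1 of these 13 called, against 0.213% of all tested probe sets called higher with candesartan and 0.262% with vehicle. It read 23617.6 and 29748 in MCAO candesartan and 27486.5 and 24231.4 in MCAO vehicle, against 13593.3 and 12383.5 in sham candesartan and 14018.1 and 13791.7 in sham vehicle. It rose by 1.01 with candesartan and 0.87 with vehicle (log2; adjusted p = 0.0108 and 0.0235 by limma). Srf, which encodes serum response factor, gave 0.26 with candesartan and 0.29 with vehicle (adjusted p = 0.389 and 0.614). For Mef2c, a neuronal MADS-box factor, the differences were 0.31 and 0.17 by its brightest probe set, 1372332_at (adjusted p = 0.467 and 0.903). Its other probe set, 1373410_at, went the other way with candesartan, at 5255.9 and 5549.7 in MCAO candesartan against 6665.2 and 7539.4 in sham candesartan. With vehicle it read 9376.6 and 7651.5 after MCAO against 6520.6 and 7258 after sham. Crtc2, a CREB coactivator, gave 0.0646 with candesartan and 0.34 with vehicle (adjusted p = 0.909 and 0.74). Ntrk2, the BDNF receptor gene, gave 0.24 with candesartan and 0.0292 with vehicle by its brightest probe set, 1368972_at (adjusted p = 0.456 and 0.988). Its other tested probe set, 1370687_a_at, read lower with vehicle, at 3925.7 and 4367.7 after MCAO against 4610.5 and 4876.5 after sham. With candesartan it read 3983.2 and 5340.2 after MCAO against 3585.8 and 3814.2 after sham. The list's median MCAO difference was 0.10 with candesartan and 0.12 with vehicle. This list too was chosen with earlier results of these data known.

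**Figure D4:**
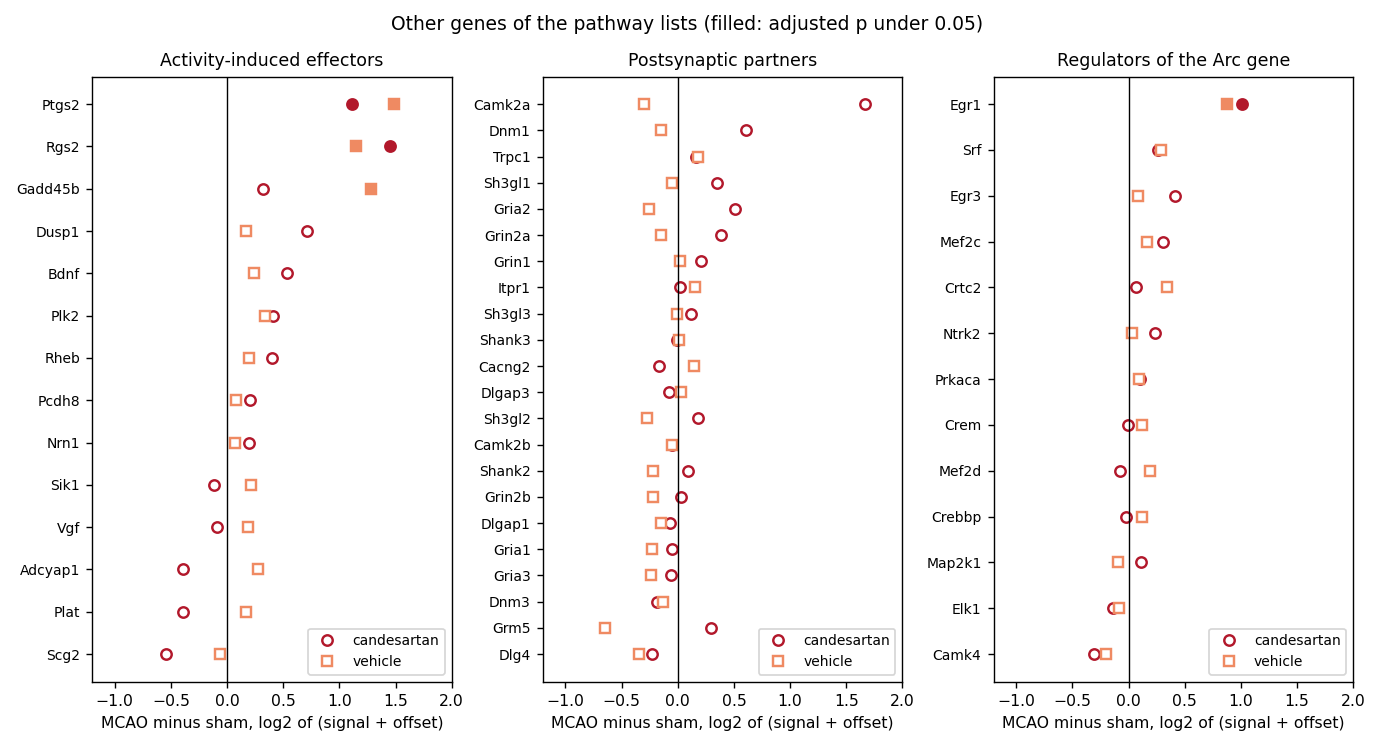
MCAO minus sham (log2 scale) with candesartan (circles) and with vehicle (squares) for the tested genes of 3 lists without Arc and Homer1: 14 activity-induced effectors, 22 postsynaptic partners and 13 regulators of the Arc gene, each by its brightest probe set. Filled symbols, with an adjusted p under 0.05, appear for Ptgs2 and Rgs2 with both pretreatments, for Gadd45b with vehicle and for Egr1 with both, and for none of the postsynaptic partners.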

How the data were processed

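Probe set intensities on a linear scale were deposited by the authors as 1 table of the series, and GCOS is named per the submitters' processing notes. Its version and settings are not given in the sources used here. Trimmed mean signals differed between arrays by at most 0.000426%, so the deposited scaling was kept. Of 15923 probe sets 57 controls were left out. Offset and filter were the 20th and 40th percentiles of all values, 369.9 and 916.3. Symbols came from the platform annotation: 12783 probe sets had 1, 312 several and 2771 none.

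All 4 groups, taken from each sample's description, were fitted in 1 model of group means with limma 3.58.1 in R 4.3.3 (variance trend, 4 residual degrees of freedom, 6 contrasts). Array numbers limit the precision. Limma's p-values set each difference against the spread between pools, moderated over all probe sets tested. Exact permutations over the 8 arrays were two-sided. The fit was tested on simulated data.

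Named genes were all Arc and Homer1 probe sets, the 5 genes most correlated with each, called members of the 3 pathway lists and the 4 with the smallest p in each MCAO contrast, and 8 fixed postsynaptic genes. A gene with several probe sets was read in lists by its brightest. The members and lists were chosen with earlier results of these data known. Promoters are RefSeq's, assembly GRCr8. Alternatives covered scaling, offset, filter, variance model, groups fitted, array weights, a block for pool number and single arrays left out.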

Additional observations from a re-analysis of the deposited data

Results flagged for a closer look

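Homer1 1368319_a_at read higher after MCAO than after sham in both candesartan pools and lower in both vehicle pools. Neither difference passed, 0.32 with candesartan (adjusted p = 0.477 by limma) and -0.13 with vehicle (adjusted p = 0.938). Of all tested probe sets 3.89% showed this pattern. Tested directly, the MCAO effect with candesartan exceeded that with vehicle by 0.45 ± 0.24 (log2, SE), which did not pass (adjusted p = 0.585 by limma). Omitting 1 array at a time gave 0.40 to 0.51. Its mean signals were 1247.7 in MCAO candesartan, 797.1 in MCAO vehicle, 928.6 in sham candesartan and 911.8 in sham vehicle, the last 3 close to the filter's threshold of 916.3. No other Arc or Homer1 probe set showed opposite directions in all pools.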

How the results depend on the processing

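Arc was called after MCAO with either pretreatment and over both under each alternative, at 1.75 to 2.06 with vehicle, 1.87 to 2.10 with candesartan and, with single arrays left out, 1.72 to 2.02. Homer1 1370997_at with vehicle was not called without the filter (1.07, adjusted p = 0.0985), and with single arrays left out gave 0.99 to 1.16. With candesartan those values were 1.25 to 1.49. Homer1 1370454_at with vehicle passed with array weights and with only the compared groups fitted (0.68 in both, adjusted p = 0.0163 and 0.0221), and without MCAO candesartan 1 or 2, the range being 0.59 to 0.77. Over both pretreatments it gave 0.64 without the filter or the trend and lost its call, and 0.53 to 0.75 with arrays left out. Why these calls changed was not tested.

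Uncalled differences near 0 changed sign with the scaling. For candesartan after sham, quantile normalization gave -0.0047 for Arc, -0.0354 for 1368319_a_at and -0.0643 for 1370997_at. Median centring gave -0.0120, -0.0304 and -0.0481 for the same 3 and -0.0140 for 1370454_at, and cyclic loess -0.0442 for 1368319_a_at and -0.0443 for 1370997_at. Centring also turned 1370454_at after MCAO (0.0287), in the interaction (0.0426) and over all arrays (0.0073), where loess gave 0.0050. For 1370656_a_at quantile, median and loess scaling gave 0.0101, 0.0053 and 0.0090 over all arrays.

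Leaving out arrays turned further uncalled values. For MCAO 1370656_a_at ranged over -0.45 to 0.14 with candesartan and -0.16 to 0.14 over both. For candesartan after MCAO Arc ranged over -0.065 to 0.24, 1370454_at over -0.27 to 0.17 and 1370656_a_at over -0.45 to 0.14. After sham Arc ranged over -0.050 to 0.13, 1368319_a_at over -0.033 to 0.072, 1370454_at over -0.039 to 0.11 and 1370997_at over -0.12 to 0.12. In the interaction Arc ranged over -0.10 to 0.20, 1370454_at over -0.31 to 0.14, 1368318_at over -0.093 to 0.26 and 1370656_a_at over -0.59 to 0.0085.

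Between groups the pool differences correlated weakly, at -0.0951 to 0.137, the highest being MCAO candesartan with sham vehicle. Pool numbers were not used to pair the arrays in the main fit, and a pairing limited to some probe sets would not show in these correlations. The replicate block changed no Arc or Homer1 call (Arc with vehicle 1.82, adjusted p = 0.000257). Over all probe sets it moved the calls for candesartan after MCAO to 4, against 7, and for the interaction to 0, against 2. The 27 calls with vehicle became 12 without the filter, 104 with array weights and 93 with only the compared groups, and the 25 with candesartan 16, 13 and 11. With arrays left out these counts were 7 to 43 and 5 to 835, and the 43 over both 21 to 389. The 7 after MCAO were 0 to 986, and 0 to 9 under the other alternatives, and the 2 of the interaction 0 to 296 and 0 to 3. All 5 maxima came without MCAO candesartan 1. With 2 pools a group, small differences were not detectable. Of 1368319_a_at no value exists at the 60th percentile filter.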
